A study of Mus musculus with 16 samples.

Results

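Vascular smooth muscle contractile genes were followed in the aortas of ovariectomized, ApoE-deficient mice that carried a progestin or a placebo pellet. The members were the 32 genes of a named list, found by the gene name of the array design, and each was measured by its brightest probe, out of 28482 genes with a probe. The groups of 4 arrays each were medroxyprogesterone acetate (MPA), placebo M, norethisterone acetate (NET-A) and placebo N, where the letters of the titles and the shared slides tie each placebo group to its progestin. All 16 aortas came from female C57BL/6 mice with the ApoE deficiency, which makes mice prone to atherosclerosis, so that no group shows the gene list in an ApoE-competent or ovary-intact animal. Per the labels' protocols, the ovaries were removed at 4 to 5 weeks of age, the pellet was placed under the skin 2 weeks later, a fat-rich diet was given during treatment, and the descending aorta was collected after 78 to 90 days. The labels give no dose, and they do not state that the 4 samples of a group came from separate animals, so a p-value reflects sample-to-sample spread that may be technical. The arrays sat on 5 glass slides: MPA and placebo M replicates 1 and 2 on slide 1 and replicates 3 and 4 on slide 2, 1 NET-A and 1 placebo N array on each of slides 3 and 4, and NET-A replicates 2 and 4 with placebo N replicates 3 and 4 on slide 5.

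Smooth muscle cells of the aortic media contract when calcium and calmodulin activate myosin light chain kinase, which phosphorylates the regulatory light chain and lets smooth muscle myosin pull on actin filaments. Myosin phosphatase reverses the step, and the force is carried through dense bodies and adhesion plaques to the neighbouring cells and the matrix. The coactivator myocardin and serum response factor (SRF) switch on many of these genes through CArG boxes, and smooth muscle cells in atherosclerotic plaques are known to lose contractile transcripts while they take on other programmes.

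The list was present in full. All 32 genes were well above background on all 16 arrays, among them the 7 defining smooth muscle genes Acta2, Myh11, Tagln, Cnn1, Smtn, Lmod1 and Myocd. Ranked among all genes of the same array, the median member stood between percentiles 96.0 and 97.3 on the arrays of the MPA experiment and between percentiles 97.0 and 97.9 on those of the NET-A experiment. A percentile of this kind orders the brightness of probes, which is not an order of RNA amounts. In the MPA experiment 8 members had a median percentile above 99 (Acta2, Tagln, Cnn1, Lmod1, Myl9, Flna, Csrp1 and Itga8), and 5 were below 75 (Hspb6, Pln, Kcnmb1, Des and Notch3). In the NET-A experiment 13 members were above 99, and Pln and Des were below 75. The aorta was analysed as a whole segment, so fewer smooth muscle cells and less RNA per smooth muscle cell cannot be told apart in any value given here.

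**Figure D1:**
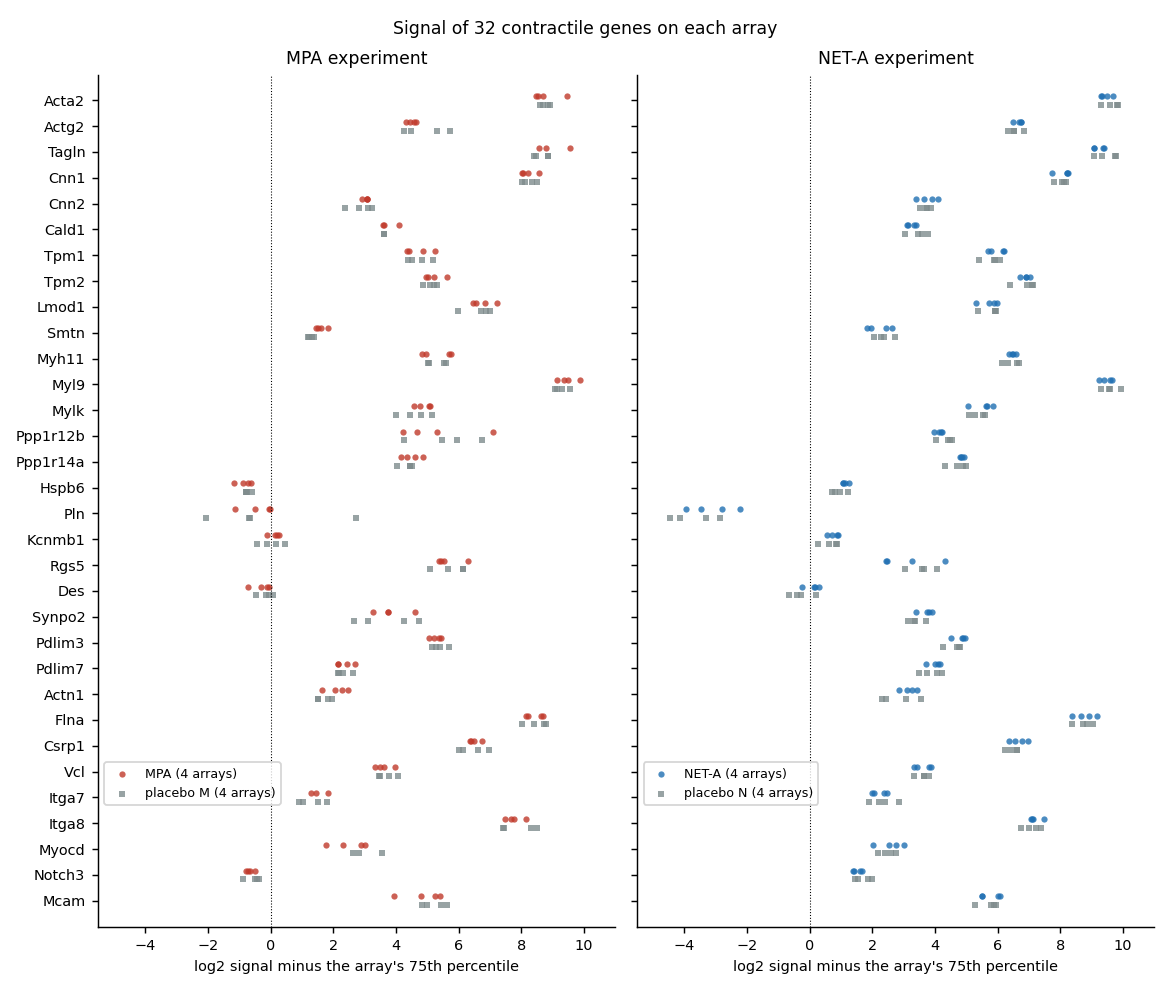
Log2 signal of each of the 32 contractile genes minus the 75th percentile of the array, with the 4 arrays of the treated group as circles and the 4 placebo arrays as squares, for the MPA experiment on the left and the NET-A experiment on the right. Treated and placebo points lie over each other for nearly all genes, and Pln and Ppp1r12b have the widest scatter in the MPA experiment.

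The promoters of the list are shown because SRF acts through a short sequence. The part of these sequences in any value given here was not tested. RefSeq promoter windows of 300 bases (250 before to 50 after the start of transcription, build GRCm38.p6) were found for 27 of the 32 genes. These were 31 windows in all, and they were searched on both strands. No window was found for Actg2, Itga7, Myh11, Myocd or Tagln, so those genes were not searched. A CArG box, read as CC, then 6 bases that are each A or T, then GG, occurred in 3 of the 31 windows (9.68%), against 1.63% of all 32851 windows. The 3 genes were Cnn2, Myl9 and Vcl, and the box began 56, 161 and 227 bases before the start of transcription. A CArG-like sequence with 1 G or C in the core occurred in 4 windows (12.9%, against 8.5% of all), those of Acta2, Hspb6, Myl9 and Pdlim3. The motif CATTCC, which TEAD factors bind, occurred in 10 windows (32.3%, against 14.7% of all), and TATAAA in 4 (12.9%, against 13.6%). No match means only that these letters are not in the window. Windows are given 5' to 3' on the strand of the gene, with CArG and CArG-like sequences in capitals, for Acta2 (smooth muscle actin, chr19:34255324-34255623, minus strand), Myl9 (regulatory light chain, chr2:156775214-156775513, plus strand), Cnn2 (a calponin, chr10:79988350-79988649, plus strand) and Vcl (vinculin, chr14:20929148-20929447, plus strand).
Acta2: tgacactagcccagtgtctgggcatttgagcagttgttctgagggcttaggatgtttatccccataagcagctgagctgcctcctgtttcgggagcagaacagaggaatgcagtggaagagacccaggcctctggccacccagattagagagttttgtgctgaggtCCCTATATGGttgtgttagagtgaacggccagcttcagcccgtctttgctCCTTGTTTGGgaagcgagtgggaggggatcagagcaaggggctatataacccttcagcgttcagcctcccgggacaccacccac
Myl9: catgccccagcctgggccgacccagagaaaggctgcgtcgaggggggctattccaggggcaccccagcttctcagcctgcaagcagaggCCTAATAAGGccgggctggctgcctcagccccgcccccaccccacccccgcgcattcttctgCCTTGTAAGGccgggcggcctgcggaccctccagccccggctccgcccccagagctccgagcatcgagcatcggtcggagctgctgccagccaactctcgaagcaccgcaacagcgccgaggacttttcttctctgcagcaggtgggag
Cnn2: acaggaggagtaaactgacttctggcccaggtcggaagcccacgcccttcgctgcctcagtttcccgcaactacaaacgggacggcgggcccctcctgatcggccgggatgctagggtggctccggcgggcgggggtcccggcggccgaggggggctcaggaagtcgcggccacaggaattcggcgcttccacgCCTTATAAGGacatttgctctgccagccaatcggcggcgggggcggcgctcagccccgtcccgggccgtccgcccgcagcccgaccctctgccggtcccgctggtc
Vcl: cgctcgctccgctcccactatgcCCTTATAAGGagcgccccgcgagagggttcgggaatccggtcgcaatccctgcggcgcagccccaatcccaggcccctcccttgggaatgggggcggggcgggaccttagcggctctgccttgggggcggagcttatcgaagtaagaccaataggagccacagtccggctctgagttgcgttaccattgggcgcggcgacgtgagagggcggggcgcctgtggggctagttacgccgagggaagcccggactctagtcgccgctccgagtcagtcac

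Contractile gene levels in aortas of treated mice lay close to those of placebo mice, and no member passed the test in either comparison. With MPA, 0 of 32 members passed an adjusted p of 0.05 (limma, Benjamini-Hochberg over all genes tested), against a background of 0% of 15374 genes. At an unadjusted p under 0.05 there were 0 members, against 6.28% of genes, and Smtn lay just above (0.0503, limma). Of probes not used, 1 each of Mylk (0.0047), Cald1 (0.0077) and Flna (0.0199) was under 0.05 (limma). With the mean of all probes of a gene 2 members were under 0.05, against 1035 of 15416 genes. After normexp background correction 3 members were, against 4315 of 15374 genes. With NET-A, 0 of 32 members passed, against 0% of 21183 genes, and at an unadjusted p under 0.05 there were 0 members, against 6.17% of genes. Under the alternatives this reached 2 members at most, as without NET-A replicate 2, against 1684 of 21183 genes. The smallest adjusted p of any gene was 0.647 with MPA and 0.321 with NET-A, so the absence of calls was not particular to the contractile genes.

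With MPA, 17 members stood higher and 15 lower than in placebo M, with a median log2 difference of 0.018 that turned to -0.062 with arrays centred on their median and to -0.25 after normexp background correction. Over all genes of that comparison 50.5% stood higher, with a median of 0.0029. With NET-A, 21 members stood higher and 11 lower than in placebo N, with a median of 0.063 (0.15 with median centring and 0.19 after normexp correction), against 45.7% of all genes higher and a median of -0.023. Without placebo N replicate 4 the count turned to 11 higher and 21 lower, with a median of -0.018. The member differences ran from -0.51 (Myocd) to 0.41 (Actn1) with MPA and from -0.46 (Rgs5) to 0.59 (Pln) with NET-A.

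The intervals state how large a difference these arrays leave room for. The median half-width of the members' 95% interval was 0.51 on the log2 scale with MPA and 0.40 with NET-A. The interval lay within 2-fold either way for 26 of 32 members with MPA (81.2%, against 77.5% of all genes) and for 30 of 32 with NET-A (93.8%, against 72.4% of all genes). It lay within 1.5-fold for 13 members with MPA and 20 with NET-A. The exceptions at 2-fold were Actg2, Ppp1r12b, Pln, Synpo2, Myocd and Mcam with MPA, and Pln and Rgs5 with NET-A. For these genes a 2-fold difference lies inside the interval. These intervals are from the fit without slide. With the slide as a block the interval lay within 2-fold for 28 members with MPA and 30 with NET-A.

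**Figure D2:**
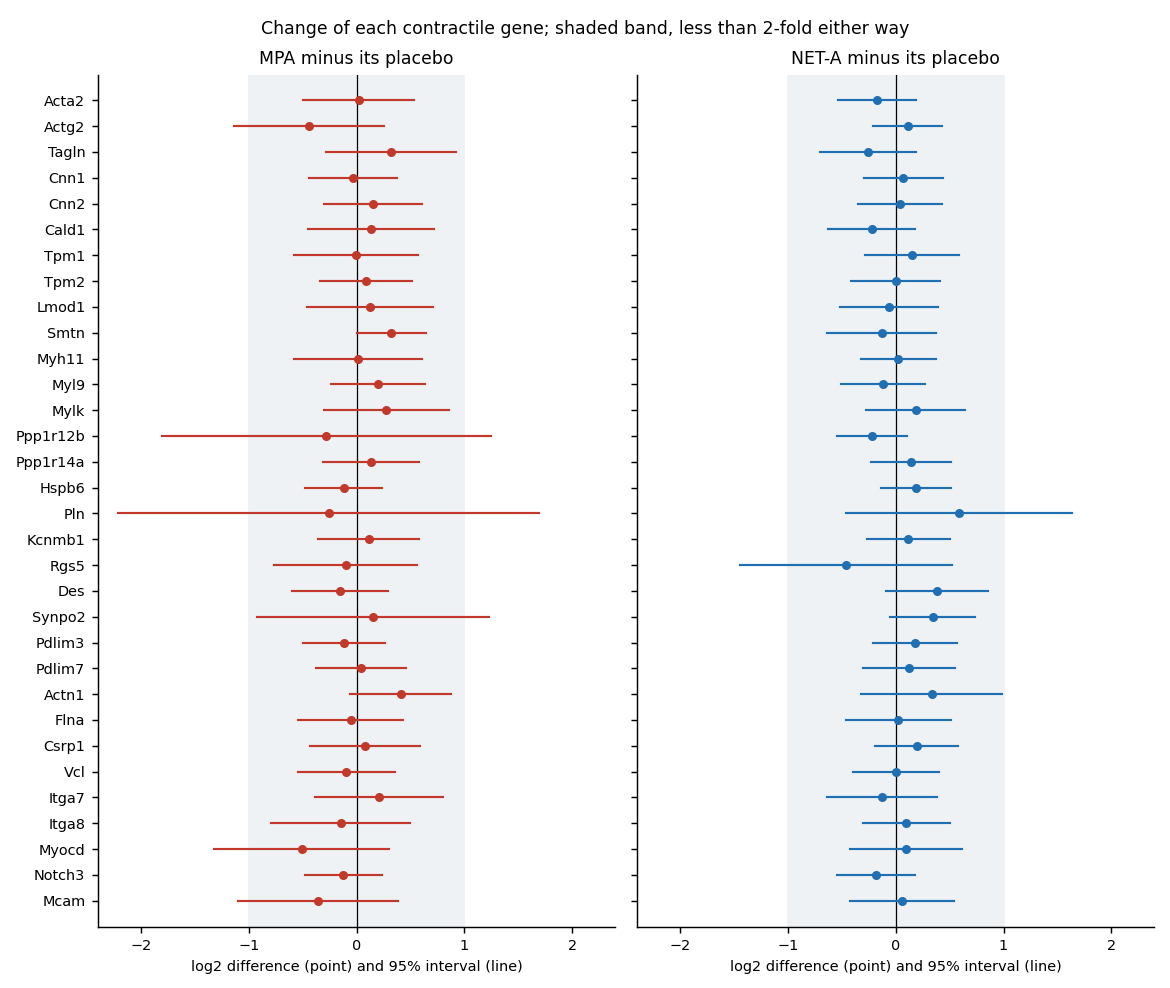
Log2 difference of each contractile gene, MPA minus placebo M on the left and NET-A minus placebo N on the right, as a point with its 95% interval from limma as a line (4 arrays per group, fewer where a spot was marked as an outlier); the shaded band covers less than 2-fold either way. Intervals of 26 members with MPA and 30 with NET-A stay inside the band, and Pln and Ppp1r12b have the longest lines with MPA.

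The thin filament and its regulators made up 10 members, of which 7 stood higher and 3 lower with MPA (median 0.10, turning to -0.29 after normexp correction), and 4 higher and 6 lower with NET-A (median -0.03, turning to 0.10 after normexp correction). Acta2 encodes smooth muscle alpha-actin and was read at chr19:34316060-34316119 (mm9, as are all probe positions). Its log2 level, the signal relative to the array's 75th percentile, was 8.69, 9.45, 8.46 and 8.54 in MPA aortas, against 8.92, 8.84, 8.70 and 8.59 in placebo M aortas. MPA replicate 2 was the highest and MPA replicate 3 the lowest, and the placebo values lay between them. The log2 difference was 0.02 ± 0.23 (SE), with a 95% interval of -0.49 to 0.54, which is 0.710-fold to 1.45-fold. With NET-A, Acta2 gave 9.67, 9.31, 9.33 and 9.50 in NET-A aortas, against 9.80, 9.84, 9.57 and 9.31 in placebo N aortas. The highest arrays were placebo N replicates 1 and 2, the groups overlapped, and the difference was -0.18 ± 0.16 with an interval of 0.688-fold to 1.14-fold. Acta2 carried 5 probes, and in each experiment they did not all point the same way, from -0.36 to 0.55 with MPA and from -0.29 to 0.15 with NET-A.

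Tagln encodes transgelin, an actin-bundling protein (probe at chr9:45738097-45738156). Its level was 9.54, 8.57 and 8.78 in MPA replicates 2, 3 and 4, against 8.46, 8.41, 8.86 and 8.85 in placebo M aortas, with the spot of MPA replicate 1 left out as an outlier. MPA replicate 2 stood above all the others and the remaining MPA arrays fell within the placebo range. The difference of 0.32 ± 0.26 (adjusted p = 0.866) became 0.03 ± 0.21 without MPA replicate 2, and it turned to -0.22 ± 0.50 with outlier spots kept and to -0.27 ± 0.53 in the deposited series table. Within slides it was 1.11 ± 0.30 on slide 1, with a single MPA array, and -0.18 ± 0.19 on slide 2. In NET-A aortas Tagln gave 9.35, 9.07, 9.09 and 9.38, against 9.79, 9.76, 9.32 and 9.06 in placebo N aortas. The top arrays were again placebo N replicates 1 and 2, the lowest was placebo N replicate 4, and the difference was -0.26 ± 0.19 (adjusted p = 0.921). The other probe of Tagln gave 0.19 ± 0.23 with MPA and, with the sign turned, 0.16 ± 0.15 with NET-A.

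Cnn1, the calponin that restrains actomyosin in smooth muscle (chr9:21913058-21913117), gave 8.23, 8.56, 8.06 and 8.01 in MPA aortas, against 8.51, 8.36, 8.01 and 8.13 in placebo M aortas. In both groups replicates 1 and 2, which share slide 1, were higher than replicates 3 and 4 of slide 2, and the groups overlapped (difference -0.04 ± 0.18). Cnn1 gave 8.25, 7.74, 8.22 and 8.22 in NET-A aortas, against 8.19, 8.12, 8.04 and 7.80 in placebo N aortas. Both groups held 1 low array, and the difference was 0.07 ± 0.16.

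Smtn encodes smoothelin, a protein found in fully contractile smooth muscle (chr11:3420834-3420893), and it was the member whose MPA and placebo arrays did not overlap. Its level was 1.84, 1.61, 1.46 and 1.53 in MPA aortas, against 1.40, 1.205, 1.21 and 1.33 in placebo M aortas. Every MPA array stood above every placebo array, by as little as the gap between 1.46 and 1.40. The difference was 0.32 ± 0.14 (1.25-fold, 95% interval -0.00055 to 0.64 on the log2 scale, unadjusted p = 0.0503, adjusted p = 0.788 by limma). Separation of this kind was found for 1 of 32 members with MPA, in the higher direction, against 2.52% of all genes higher and 1.51% lower (4.03% either way). With NET-A it was found for 0 of 32, against 1.58% of all genes higher and 2.3% lower (3.88% either way). With the slide as a block the unadjusted p of Smtn was 0.0457 and the adjusted p 0.677, and over 22 alternative settings its adjusted p ran from 0.609 to 1.00. Smtn gave 2.62, 1.96, 2.45 and 1.85 in NET-A aortas, against 2.38, 2.71, 2.26 and 2.05 in placebo N aortas. The groups overlapped there, and the difference was -0.13 ± 0.22.

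Lmod1 encodes leiomodin 1, which starts new actin filaments (chr1:137263311-137263369). It gave 7.22, 6.45, 6.85 and 6.56 in MPA aortas, against 6.99, 6.87, 5.99 and 6.73 in placebo M aortas, with placebo M replicate 3 lowest and a difference of 0.12 ± 0.26. It gave 5.99, 5.32, 5.87 and 5.74 in NET-A aortas, against 5.92, 5.93, 5.95 and 5.37 in placebo N aortas. NET-A replicate 2 and placebo N replicate 4 were low, the other 6 arrays lay close together, and the difference was -0.06 ± 0.20. Actg2, the gamma-actin of enteric smooth muscle (chr6:83472853-83473179), gave 4.65, 4.33, 4.58 and 4.45 in MPA aortas, against 5.72, 5.30, 4.48 and 4.27 in placebo M aortas. The 2 placebo arrays of slide 1 stood above all the others, and those of slide 2 were level with MPA. The difference of -0.44 ± 0.31 (adjusted p = 0.845) was -1.02 ± 0.28 within slide 1 and 0.14 ± 0.20 within slide 2. Actg2 gave 6.69, 6.73, 6.48 and 6.74 in NET-A aortas, against 6.51, 6.53, 6.82 and 6.33 in placebo N aortas, overlapping, with a difference of 0.11 ± 0.14. The remaining thin filament genes, the calponin Cnn2, the caldesmon Cald1 and the tropomyosins Tpm1 and Tpm2, ranged from -0.0048 (Tpm1) to 0.15 (Cnn2) with MPA and from -0.22 (Cald1) to 0.15 (Tpm1) with NET-A. Cald1 lost MPA replicate 1 and placebo M replicates 1 and 2 to outlier marks, and its other probe gave 1.09 ± 0.32 with MPA (adjusted p = 0.687 over all probes), against 0.13 ± 0.24 for the probe used. With MPA the other 3 probes of Tpm1 ranged from -1.67 ± 0.86 to 0.24 ± 0.35, and the other probe of Tpm2 gave -1.33 ± 1.03, against 0.08 ± 0.19 for the probe used.

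The thick filament and the enzymes that switch it made up 6 members, with 4 higher and 2 lower in each comparison (median 0.08 with MPA, turning to -0.0045 with median centring and to -0.19 after normexp correction, and 0.08 with NET-A). Myh11, the smooth muscle myosin heavy chain (chr16:14195223-14198147), gave 5.77, 5.69, 4.83 and 4.96 in MPA aortas, against 5.60, 5.53, 5.02 and 5.04 in placebo M aortas. The 4 arrays of slide 1 were all higher than the 4 arrays of slide 2, in both groups. The difference was 0.02 ± 0.26, and its standard error was 0.13 with the slide as a block. Myh11 gave 6.45, 6.35, 6.59 and 6.48 in NET-A aortas, against 6.32, 6.62, 6.68 and 6.13 in placebo N aortas. The NET-A arrays lay inside the placebo range, and the difference was 0.02 ± 0.15 (0.797-fold to 1.30-fold). Myl9, the regulatory light chain that the kinase phosphorylates, differed by 0.20 ± 0.19 with MPA and -0.12 ± 0.17 with NET-A, and Mylk, the kinase, by 0.27 ± 0.26 and 0.18 ± 0.20. The other probes of Mylk gave 0.87 ± 0.23 (adjusted p = 0.687 over all probes) and 1.21 ± 0.82 with MPA, and -0.43 ± 0.29 and 0.16 ± 0.23 with NET-A.

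Ppp1r12b encodes a targeting subunit of myosin phosphatase (chr1:136651322-136651381) and had the second widest spread of the list. It gave 7.09, 4.22, 5.31 and 4.68 in MPA aortas, against 6.75, 5.94, 4.27 and 5.46 in placebo M aortas. Replicate 1 was the highest in both groups, and both arrays lay on slide 1. The difference was -0.28 ± 0.67. It was -0.87 ± 0.54 without MPA replicate 1 and -0.73 ± 0.65 without placebo M replicate 3, and turned to 0.10 ± 0.68 without placebo M replicate 1 and to 0.09 ± 0.69 without MPA replicate 2. The other 2 probes of the gene gave 0.05 ± 0.30 and 0.29 ± 0.21. In the NET-A experiment the spread was small, with 4.19, 4.22, 3.98 and 4.13 in NET-A aortas, against 4.40, 4.47, 4.53 and 4.03 in placebo N aortas. The first 3 placebo arrays stood above all NET-A arrays and placebo N replicate 4 did not. The difference was -0.22 ± 0.14 (adjusted p = 0.902), or -0.33 ± 0.13 without placebo N replicate 4 (adjusted p = 0.859). Ppp1r14a, an inhibitor of the same phosphatase, differed by 0.14 ± 0.20 with MPA and 0.14 ± 0.16 with NET-A.

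Hspb6, a small heat shock protein linked to relaxation (chr7:31339385-31339528), had the narrowest spread of the list. It gave -0.72, -0.87, -1.17 and -0.62 in MPA aortas, against -0.77, -0.60, -0.77 and -0.76 in placebo M aortas. The MPA values lay on both sides of the placebo values (difference -0.12 ± 0.16). It gave 1.24, 1.06, 1.11 and 1.08 in NET-A aortas, against 0.82, 1.24, 0.97 and 0.70 in placebo N aortas. Placebo N replicate 2 was as high as the highest NET-A array, and the difference was 0.19 ± 0.14 (adjusted p = 0.922). The level of Hspb6 also differed between the experiments as wholes, as did those of other members, among them Actg2, Myh11, Pln, Rgs5 and Notch3. The experiments used different slides and different versions of the scanner software, so those differences and the mice cannot be told apart, and levels are set side by side only within an experiment.

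Calcium handling and membrane excitability were represented by 3 members, with 1 higher and 2 lower with MPA (median -0.10, turning to 0.03 with quantile normalization) and 2 higher and 1 lower with NET-A (median 0.12, turning to -0.05 after normexp correction). Pln encodes phospholamban, which restrains the calcium pump of the sarcoplasmic reticulum and is also a gene of heart muscle (chr10:53064944-53065003). Its level was -0.04, -1.12, -0.49 and -0.02 in MPA aortas, against -2.04, -0.64, -0.68 and 2.74 in placebo M aortas. Placebo M replicates 4 and 1 were the highest and the lowest of the 8 arrays, and all MPA arrays lay between them. The difference was -0.26 ± 0.87, with an interval of 0.215-fold to 3.24-fold, and it turned to 0.71 ± 0.41 without placebo M replicate 4 (adjusted p = 0.786). Pln gave -3.46, -2.22, -2.81 and -3.94 in NET-A aortas, against -3.31, -2.87, -4.13 and -4.46 in placebo N aortas. NET-A replicate 2 was the highest, and the difference was 0.59 ± 0.46 (adjusted p = 0.929), or 0.29 ± 0.44 without it.

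The arrays on which Pln was high were also high for heart muscle markers. On placebo M replicate 4 the median of the cardiac muscle list stood 2.93 above its mean over the experiment, while the other 7 arrays lay between -0.62 and -0.35. On NET-A replicate 2 it stood 1.43 above, while the other 7 lay between -0.49 and -0.09. Of the 10 cardiac markers (among them Myh6, Myl7, Nppa and Tnnt2), 9 were kept in each experiment, and none was below background on every array. The log2 of their summed level ran from 5.15 to 6.08 on MPA arrays, against 5.47 to 6.88 on placebo M arrays, and from 7.37 to 7.73 on NET-A arrays, against 7.16 to 7.69 on placebo N arrays. The part of these markers in the values of Pln was not tested.

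**Figure D3:**
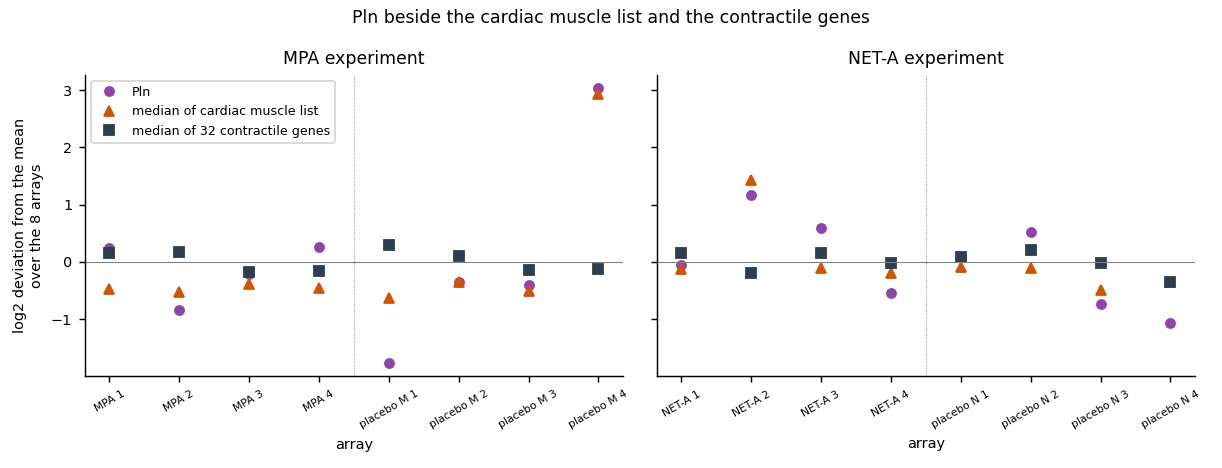
Deviation of Pln (circles), of the median of the cardiac muscle list (triangles) and of the median of the 32 contractile genes (squares) from the mean over the 8 arrays of the experiment, on the log2 scale, with treated arrays left of the dotted line and placebo arrays right of it. Pln and the cardiac list peak together on placebo M replicate 4 and on NET-A replicate 2, where the contractile genes have no peak.

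Kcnmb1, the beta subunit of the large-conductance potassium channel, differed by 0.11 ± 0.21 with MPA and 0.12 ± 0.17 with NET-A. Rgs5, a brake on G protein signalling found in mural cells, gave 6.29, 5.54, 5.37 and 5.43 in MPA aortas, against 6.15, 6.15, 5.67 and 5.08 in placebo M aortas, overlapping, with a difference of -0.10 ± 0.30. In the NET-A experiment it gave 2.47, 4.33, 2.43 and 3.25 in NET-A aortas, against 3.59, 4.05, 3.05 and 3.64 in placebo N aortas. NET-A replicate 2 was the highest of the 8 arrays while NET-A replicates 1 and 3 were the lowest. The difference of -0.46 ± 0.43 was -0.86 ± 0.29 without NET-A replicate 2 (unadjusted p = 0.0208, adjusted p = 0.562) and 0.44 ± 0.43 within slide 5.

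The proteins of Z-lines, dense bodies and adhesion plaques made up 10 members, with 5 higher and 5 lower with MPA (median -0.0075, turning to 0.06 with quantile normalization) and 9 higher and 1 lower with NET-A (median 0.15). Under the 4 other scalings of the NET-A arrays 8 to 10 of the 10 were higher. Those scalings keep placebo N replicate 4, without which the 32 members as a whole stood 11 higher and 21 lower. Over 21 alternatives, leaving out each array among them, Actn1, Csrp1, Des, Pdlim3 and Synpo2 stayed higher with NET-A. Flna, Itga7, Itga8, Pdlim7 and Vcl turned sign under some of these. Synpo2, an actin-binding partner of alpha-actinin at dense bodies (chr3:122779807-122779866), had the smallest p of the members with NET-A. It gave 3.82, 3.39, 3.92 and 3.76 in NET-A aortas, against 3.35, 3.32, 3.71 and 3.14 in placebo N aortas. NET-A replicates 1, 3 and 4 stood above all placebo arrays and NET-A replicate 2 lay within them. The difference was 0.34 ± 0.17 (1.27-fold, 95% interval -0.05 to 0.74, unadjusted p = 0.0792, adjusted p = 0.845 by limma). The other probes of Synpo2 gave -0.16 ± 0.27, 0.08 ± 0.25 and -0.18 ± 0.29 with NET-A. In the MPA experiment Synpo2 gave 4.61, 3.26, 3.74 and 3.75 in MPA aortas, against 4.75, 4.27, 3.10 and 2.65 in placebo M aortas. The placebo arrays covered a wider range than the MPA arrays, and the difference was 0.15 ± 0.48. The other probes of the gene gave 0.97 ± 0.65, 0.18 ± 0.23 and 0.32 ± 0.28 with MPA.

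Des encodes desmin, the intermediate filament of muscle (chr1:75363404-75363629). It gave -0.72, -0.03, -0.31 and -0.11 in MPA aortas, against -0.46, -0.13, 0.08 and -0.04 in placebo M aortas, overlapping, with a difference of -0.15 ± 0.20. It gave 0.16, 0.31, 0.14 and -0.24 in NET-A aortas, against -0.29, 0.20, -0.67 and -0.41 in placebo N aortas. All but placebo N replicate 2 stood below all NET-A arrays, and the difference was 0.38 ± 0.21 (adjusted p = 0.864), or 0.54 ± 0.18 without that array (adjusted p = 0.796). Actn1, the non-muscle alpha-actinin that crosslinks actin (chr12:81269446-81269882), gave 2.06, 2.46, 1.65 and 2.29 in MPA aortas, against 1.502, 1.53, 1.96 and 1.84 in placebo M aortas. Of the MPA arrays, replicate 3 lay within the placebo range and the other 3 stood above it (difference 0.41 ± 0.21, adjusted p = 0.825, and 0.75 ± 0.25 within slide 1 and 0.07 ± 0.27 within slide 2). Actn1 gave 3.12, 3.28, 3.44 and 2.87 in NET-A aortas, against 3.09, 3.54, 2.45 and 2.30 in placebo N aortas. The placebo arrays of slide 5 were the lowest, and the difference was 0.33 ± 0.29. The other 7 genes of this group, the LIM proteins Pdlim3, Pdlim7 and Csrp1, filamin Flna, vinculin Vcl and the integrins Itga7 and Itga8, ranged from -0.15 (Itga8) to 0.21 (Itga7) with MPA and from -0.13 (Itga7) to 0.19 (Csrp1) with NET-A. Itga7 lost MPA replicate 1 to an outlier mark.

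The regulator Myocd and the surface proteins Notch3 and Mcam stood lower with MPA (3 of 3, median -0.36, also under the 4 other scalings), and 2 stood higher and 1 lower with NET-A (median 0.06). Over the 22 alternatives with MPA, Myocd stayed lower (-0.78 to -0.0044). Notch3 and Mcam each turned higher in 1 of them, to 0.0024 and 0.28. Myocd, the coactivator that drives contractile transcription with SRF (chr11:64990406-64990465), gave 3.02, 2.89, 2.31 and 1.77 in MPA aortas, against 3.56, 2.83 and 2.64 in placebo M replicates 1, 2 and 3, with replicate 4 left out as an outlier. MPA replicates 3 and 4 lay below all placebo arrays and the other MPA arrays lay among them. The difference was -0.51 ± 0.35 (95% interval -1.33 to 0.30, adjusted p = 0.845), while the other probe of Myocd gave 0.06 ± 0.23. Myocd gave 2.53, 2.03, 2.999 and 2.75 in NET-A aortas, against 2.42, 2.60, 2.75 and 2.18 in placebo N aortas, overlapping, with a difference of 0.09 ± 0.23. Notch3, the Notch receptor of arterial smooth muscle (chr17:32257848-32257907), gave -0.64, -0.73, -0.77 and -0.51 in MPA aortas, against -0.51, -0.87, -0.42 and -0.36 in placebo M aortas. It gave 1.40, 1.67, 1.43 and 1.60 in NET-A aortas, against 1.44, 1.99, 1.53 and 1.86 in placebo N aortas. Groups overlapped in both experiments, and the differences were -0.12 ± 0.16 with MPA and -0.18 ± 0.16 with NET-A. Mcam, an adhesion molecule of vessel wall cells, differed by -0.36 ± 0.33 and 0.06 ± 0.21.

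The difference between the responses, MPA against placebo M minus NET-A against placebo N, was tested over all 16 arrays on 15243 genes. It passed for 0 of 32 members, against a background of 0% of genes. An unadjusted p under 0.05 was found for 0 members, against 6.9% of genes (after normexp correction 6 members, against 4262 of 15243 genes). The member median was -0.034, with 13 positive and 19 negative, against 0.011 over all genes. The smallest p of the members belonged to Des, at -0.54 ± 0.28 (unadjusted p = 0.0788, adjusted p = 0.759, limma), Smtn, at 0.45 ± 0.25 (0.0968 and 0.778), and Tagln, at 0.58 ± 0.33 (0.0976 and 0.778). For Tagln that value was 0.04 with outlier spots kept, and it turned to -0.17 in the deposited series table. The other probe of Tagln stood higher with both progestins (0.19 ± 0.23 with MPA and 0.16 ± 0.15 with NET-A). The interval of the difference lay within 2-fold for 22 of 32 members, so that for the other 10 a 2-fold difference between the progestins lies inside it. The doses are not in the labels, and the comparison is of the treatments as given.

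Member levels moved together by slide in the MPA experiment, and less evenly in the NET-A experiment. In the MPA experiment 26 of 32 members were higher on slide 1 than on slide 2, by a median of 0.35, while 47.4% of all genes were higher there, with a median of -0.019. In the NET-A experiment 29 of 32 were higher on slides 3 and 4 than on slide 5, by a median of 0.24, while 50.2% of all genes were higher, with a median of 0.0012. The number of members above their mean over the experiment was 21, 21, 6 and 10 on the MPA arrays, against 26, 20, 8 and 9 on the placebo M arrays. On the NET-A arrays it was 26, 9, 22 and 14, against 23, 29, 15 and 2 on the placebo N arrays. Placebo N replicate 4 was thus low for 30 of the 32 genes, with a median deviation of -0.35. On the same slide NET-A replicate 2 was low too (-0.20). The other arrays of slide 5, NET-A replicate 4 (-0.014) and placebo N replicate 3 (-0.020), lay near the mean of the experiment. Every slide held as many treated as placebo arrays, so a slide block leaves the differences as they are apart from dropped spots. Within slides the member median was -0.038 on slide 1 (31 members), 0.016 on slide 2 and 0.046 on slide 5. Slides 3 and 4 held 1 array of each group, too few for a value. A slide number is read from the file headers and says nothing of when tissue was taken or RNA extracted, so that the slide and such steps cannot be told apart.

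**Figure D4:**
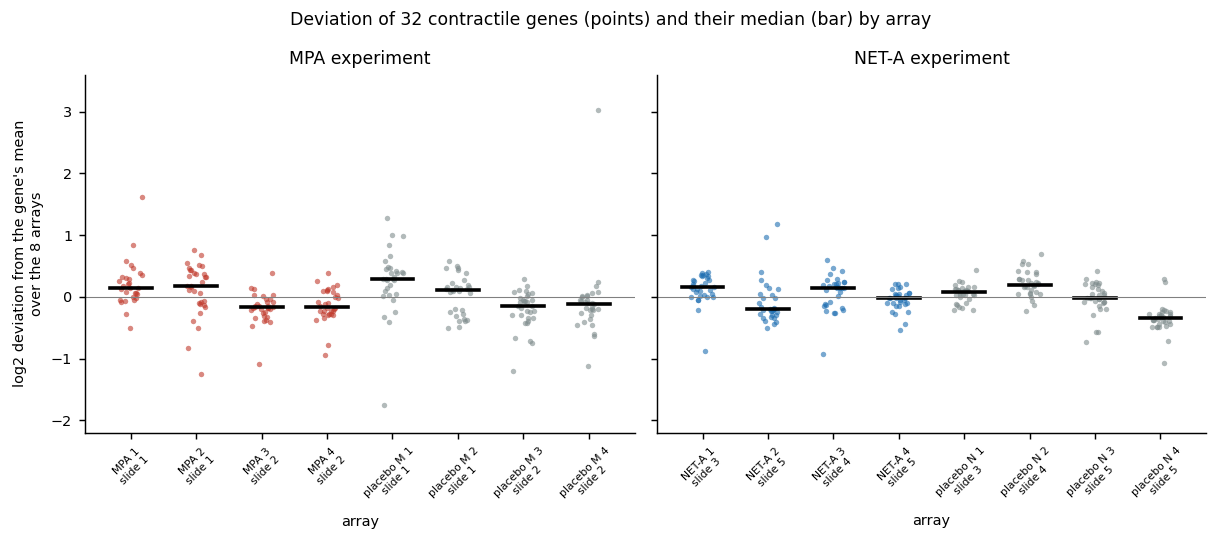
Deviation of each contractile gene from its own mean over the 8 arrays of the experiment, on the log2 scale, with 1 point per gene and a bar at the median of the array, treated arrays left and placebo arrays right, and the slide below each array's name. In both groups of the MPA experiment the bars of slide 1 lie above 0 and those of slide 2 below it, and placebo N replicate 4 has the lowest bar, at -0.35.

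Other lists moved on the same arrays. A list of 34 other filament and dense plaque proteins moved by slide in the MPA experiment too. Its median deviation was 0.20, 0.05, -0.12 and -0.14 on the MPA arrays, against 0.26, 0.04, -0.16 and -0.13 on the placebo M arrays. In the NET-A experiment that list was lowest on placebo N replicate 4 (-0.27). Placebo N replicate 4 had a median deviation of 1.24 for the macrophage list and 0.48 for a list of modulated or synthetic smooth muscle genes, its highest values of the 8 arrays for both. NET-A replicate 2, where 9 of 32 members were above their mean, had 1.31 for brown adipocyte, 1.29 for adipocyte and 0.55 for endothelial markers. The skeletal muscle list stood at 4.64 on placebo M replicate 3. Lists are also given by treatment, with 0 markers past the threshold. The counts are of markers kept, and a marker bright on the 4 arrays of 1 group alone passes that filter, so they are no test of direction. Of 9 neutrophil markers on the arrays, 6 were kept with MPA and 8 with NET-A. Of 13 skeletal muscle markers, 6 and 12 were kept. Neutrophil markers stood higher for 6 of 6 with MPA (median 2.39) and 7 of 8 with NET-A (1.04, or 0.05 after normexp correction). Red blood cell markers stood higher for 5 of 5 (1.07) and 6 of 6 (1.53). With MPA the list median of placebo M replicate 1 (0.65) lay above those of MPA replicates 1, 2 and 4 (-0.29, 0.63 and 0.53). With NET-A the list medians did not overlap (0.09 to 1.53, against -1.50 to -0.30). The log2 of the summed level did overlap there (9.98 to 10.31, against 9.79 to 10.28). Skeletal muscle markers stood lower for 6 of 6 with MPA (-1.82). The list median of placebo M replicate 1 (-1.03) nevertheless lay below those of all MPA arrays (-1.02 to -0.84). With NET-A the skeletal muscle markers stood higher for 12 of 12 (1.24, or 0.48 after normexp correction). There the list median of NET-A replicate 4 (-0.61) lay below those of placebo N replicates 2 and 4 (-0.31 and -0.52). Endothelial markers stood higher for 10 of 13 with MPA (0.20, turning to -0.03 after normexp correction) and 9 of 13 with NET-A (0.06). None of these markers was below background on every array. The log2 of the summed neutrophil level ran from 5.15 to 6.94 on MPA arrays, against 2.34 to 4.37 on placebo M arrays, and from 2.70 to 4.22 on NET-A arrays, against 1.72 to 2.53 on placebo N arrays. The part of these cell types in the member values was not tested.

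The pooled within-group SD had a median of 0.32 over the members and 0.30 over all genes in the MPA experiment, and 0.24 and 0.30 in the NET-A experiment. Over genes at least as bright as the lower quartile of the members the median was lower than that of the members in both, at 0.28 (MPA) and 0.20 (NET-A). Member spread was widest for Pln (1.18 over the 4 groups) and Ppp1r12b (0.82), and narrowest for Hspb6 (0.18) and Notch3 (0.19). For Ppp1r12b the spread came from the MPA experiment (1.15, against 0.18 in the NET-A experiment). Of 18 members with more than 1 probe kept, 11 had probes of opposite sign with MPA and 11 with NET-A, and 0 of 63 member probes passed the threshold in either comparison.

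Genes around the contractile apparatus were read from further lists, and none passed the threshold in either comparison. Of a list of SRF, its cofactors and other transcription regulators of smooth muscle and its neighbours, 9 stood higher and 5 lower with MPA (median 0.07, turning to -0.0061 with median centring and to -0.08 after normexp correction), and 11 higher and 6 lower with NET-A (median 0.12). The smallest p belonged to Heyl, a Notch-target repressor (0.43 ± 0.17), and Tgfb1i1 (0.38 ± 0.19) with MPA, and to Gata4 (-0.37 ± 0.17) and Klf2, a factor best known from endothelium (0.49 ± 0.24), with NET-A. Srf itself differed by 0.15 ± 0.15 with MPA and 0.21 ± 0.21 with NET-A. Of contraction and relaxation signalling, 8 stood higher and 12 lower with MPA (10 and 10 in the deposited series table), led by Gucy1a3 (0.55 ± 0.21), a subunit of the nitric oxide receptor, and Htr2b (-0.93 ± 0.60), a serotonin receptor. With NET-A 15 stood higher and 7 lower (11 and 11 after normexp correction), led by Avpr1a (1.09 ± 0.38), the vasopressin receptor, and Rock2 (-0.34 ± 0.14), a kinase that restrains myosin phosphatase. Of calcium handling and ion channels, 7 stood higher and 9 lower with MPA (9 and 7 after normexp correction), led by the calcium sensor Stim1 (0.52 ± 0.16) and the potassium channel Kcnma1 (0.39 ± 0.23). With NET-A 13 stood higher and 7 lower (8 and 12 after normexp correction), led by the calcium release channel Ryr3 (0.89 ± 0.23) and sarcolipin, Sln (2.28 ± 1.08), a pump regulator of striated muscle. Skeletal muscle markers stood higher for 12 of 12 and cardiac markers for 8 of 9 (median 0.58) in the same comparison, and their part in the value of Sln was not tested. Of other filament and dense plaque proteins, 18 stood higher and 16 lower with MPA (10 and 24 with median centring), led by Tpm3 (-0.71 ± 0.23) and Ldb3 (0.61 ± 0.22), and 15 higher and 19 lower with NET-A (27 and 7 with median centring), led by Crispld2, a secreted protein and no filament protein (0.79 ± 0.21), and Fhl2 (-0.30 ± 0.16).

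Genes of modulated or synthetic smooth muscle stood lower for 13 of 19 with MPA (median -0.24, or -0.43 with 17 lower after normexp correction and -0.15 in the deposited series table) and for 17 of 20 with NET-A (median -0.40), against medians of 0.0029 and -0.023 over all genes, and 0 passed the threshold. The smallest p belonged to Lgals3 (-0.88 ± 0.25) and Tnc (-0.34 ± 0.19) with MPA, and to Myh9 (-0.39 ± 0.11) and Lum (-0.80 ± 0.28) with NET-A. The median deviation of the modulated list was highest on placebo M replicate 4 (0.21) and placebo N replicate 4 (0.48). Placebo M replicate 3 (-0.17) lay below MPA replicates 1, 2 and 3 (0.02, -0.04 and -0.0072). NET-A replicate 1 (0.11) lay above placebo N replicates 1 and 2 (0.09 and 0.05). Lgals3, Spp1 and Cd44 of that list are also genes of macrophages, whose 12 markers all stood lower in both comparisons (11 of 12 with MPA after normexp correction; median -0.54 with MPA and -0.55 with NET-A). The log2 of the summed level of those markers ran from 6.12 to 6.87 on MPA arrays, against 6.46 to 7.56 on placebo M arrays, and from 4.87 to 5.70 on NET-A arrays, against 5.12 to 6.79 on placebo N arrays, with none below background on every array. The median deviation of the macrophage list was highest on placebo M replicate 4 (0.90) and, in the NET-A experiment, on placebo N replicate 4 (1.24). Placebo M replicate 1 (-0.33) lay below MPA replicates 1 and 3 (-0.03 and -0.18). Placebo N replicates 2 and 3 (-0.06 and -0.17) lay below NET-A replicate 4 (0.07). The part of the macrophage markers in the modulated list was not tested.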

How the data were processed

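Transcript levels were measured on 16 one-colour Agilent arrays. Per the file headers, spot intensity was read by the authors with Agilent Feature Extraction 10.7.1.1 (MPA experiment) and 11.0.1.1 (NET-A experiment), with background subtraction and multiplicative detrending listed for the MPA experiment and no steps listed for the other; the deposited intensity was not normalized between arrays, and probes are annotated on mm9. A deposited series table of log2 values, with steps not stated, served as an alternative. From 43379 non-control spots per array, those marked as outliers were dropped (0.274% of probe values) and none was saturated. Per array, between 46.3% (MPA replicate 2, the dimmest) and 78.5% of spots were well above background, and 4 arrays per group limit the precision. The log2 processed signal minus the array's 75th percentile was averaged over spots of a probe (41174 probes), and the probe with the highest mean over 16 arrays stood for a gene. Names followed RefSeq through accessions (26690 probes matched), with the design's name otherwise; all 64 member probes were matched by the design's name, which in the NET-A experiment was carried over by probe identifier.

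Genes well above background on at least 4 of 8 arrays were kept. MPA was set against placebo M, NET-A against placebo N, and the responses against each other, in limma 3.58.1 under R 4.3.3 (lmFit, eBayes; two-sided tests; adjusted p threshold 0.05 by Benjamini-Hochberg), tested on simulated data. Values after ± are standard errors. A value dropped as an outlier was left missing, not imputed. The members, lists and rules were chosen with earlier results of these data known. Values in every array are given for the 7 defining genes, the 5 members of smallest p in each comparison, the 3 for the difference, and the 2 of widest and 2 of narrowest spread (Rgs5 was added after its values were seen). Of other lists the 2 genes of smallest p in each comparison are named (Srf and the macrophage-related genes were added). Replicate numbers did not pair samples: same-number correlations of deviations ran from -0.23 to 0.23 (MPA) and from -0.33 to 0.33 (NET-A). Alternatives were normexp background correction (offset 50, on the median in place of the mean signal in the NET-A experiment, whose files used here hold no mean), median centring, quantile normalization, filters, probe averages, outlier spots kept, slide and replicate blocks, single slides and leaving out each array.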

Additional observations from a re-analysis of the deposited data

Results flagged for a closer look

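Over 127 groups of 4 values (123 of a single member, leaving out groups with a dropped spot, and 4 of the array medians of all members), 7 held 1 array that lay far from the other 3 relative to the group's range, where chance gives about 6.35 (1 in 20). Cnn1 was 7.74 on NET-A replicate 2, against 8.22 to 8.25 on the other NET-A arrays, and the NET-A difference without that array was 0.19 ± 0.13. Cnn2 was 2.92 on MPA replicate 3, against 3.06 to 3.08 on the other MPA arrays (0.19 ± 0.23 without it). Itga8 was 7.49 on NET-A replicate 1, against 7.05 to 7.11 (-0.0062 ± 0.18 without it). Placebo N replicate 4 was the distant array for Lmod1, at 5.37 against 5.92 to 5.95, and for Pdlim3, at 4.25 against 4.71 to 4.78, and the NET-A differences without it were -0.20 ± 0.18 and 0.05 ± 0.15. Placebo M replicate 2 was the distant array for Ppp1r14a, at 4.04 against 4.45 to 4.50, and for Hspb6, at -0.60 against -0.77 to -0.76, and the MPA differences without it were 0.03 ± 0.20 and -0.08 ± 0.18. None of these 7 differences passed the threshold with or without the array (limma).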

How the results depend on the processing

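No member passed the threshold under any of 22 alternatives with MPA, 21 with NET-A or 27 for the difference between the responses. The count over all genes with MPA was 3 with all 16 arrays in 1 fit and 2 with the slide as a block. For the difference between the responses it was 1 with quantile normalization, 1 with the replicate number as a block and 1 without NET-A replicate 1, with a range of 0 to 1 when 1 array was left out. The replicate block changed no other call: with it 0 members passed, the member medians were 0.018 (MPA) and 0.063 (NET-A), which the balanced numbers fix apart from dropped spots, while the smallest adjusted p of any gene with MPA was 0.0501. Normexp correction put the member median at -0.25 with MPA, with 5 members higher and 27 lower (all genes 0.02), and at -0.43 for the difference between the responses. With NET-A normexp moved the median of all genes to -0.13 and of the members to 0.19. Median centring moved the median of all genes to -0.08 (MPA), 0.06 (NET-A) and -0.16 (the difference). Leaving out 1 array moved the member median from -0.08 to 0.12 with MPA, with MPA replicates 1 and 2 and placebo M replicates 3 and 4 each turning its sign. It moved the member median from -0.018 to 0.12 with NET-A, with NET-A replicate 3 and placebo N replicate 4 turning it, and from -0.11 to 0.064 for the difference. The cause of these shifts was not tested. Among values of single members and arrays, 68 moved by more than the replicate SD and 2219 did not, none of them past the threshold; 36 of the member values that moved did so under normexp and 14 under the mean of all probes. Signal over background limits Pln most, at a median percentile of 41.1 in the NET-A experiment.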
